A study of Mus musculus with 8 samples.

Results

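The genes described here are 34 mouse genes of amino acid supply and amino acid stress, out of 27514 genes counted in every library. They were chosen by name: 19 genes of cytosolic aminoacyl-tRNA synthetases, 6 enzymes that make asparagine, serine, glycine or one-carbon units, 3 amino acid transporter subunits and 6 transcription factors or effectors of the amino acid stress response. All 34 symbols were found in the gene list of data set 1 and matched by Ensembl identifier to data set 2, and all 34 passed the filter on low counts in every test below. They were measured in thymic epithelial cells (TEC), the stromal cells that raise T cells in the thymus. Cortical TEC (cTEC) line the cortex and medullary TEC (mTEC) the medulla.

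The measurements are counts of unique molecular identifiers (UMIs, which count RNA molecules) per gene in single cells from wild-type C57BL/6 mice, with no treatment in any group. Viable cells with EpCAM and without CD45 were sorted, cTEC as Ly51+ UEA-1- (UEA-1 is a lectin that binds mTEC) and mTEC as Ly51- UEA-1+. Of the 8 libraries, 1 held total TEC of E13.5, since the lineages cannot be sorted apart at that age. A single library each came from cTEC of E15.5, of E17.5 and of newborn (NB) mice 0 to 2 days old. The adult mice were 4 to 6 weeks old and gave 2 libraries of adult cTEC and 2 of adult mTEC. Data set 1 held E13.5, E15.5, NB and replicate 1 of both adult groups; data set 2 held E17.5 and replicate 2 of both adult groups. The number of animals behind each library is not given in the sources used here, so a p-value refers to these libraries and not to animals. It does not rest on the spread of a single gene alone, as edgeR draws each variance towards that of all genes. This weighs most in the comparison of the adult lineages, with 4 libraries. In the age trend, with 1 library per age below the adult, a p-value measures scatter about a straight line. Fetal thymi were dissociated with trypsin, and newborn and adult thymi with Liberase for longer and with enrichment on Percoll, so age and dissociation cannot be told apart across birth.

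A tRNA synthetase loads one amino acid onto its tRNAs, which carry it to the ribosome. When an amino acid runs short, uncharged tRNA activates a kinase of the translation factor eIF2alpha; general translation then falls while the transcription factor ATF4 is made. ATF4 is known to raise many of the genes listed here: synthetases, the serine and asparagine enzymes, the transporters, and CHOP (the product of Ddit3), TRIB3, CHAC1 and SESN2. Endoplasmic reticulum stress, haem shortage and viral RNA feed the same pathway, and MYC, which the study followed in fetal TEC, is known to act on several of the same enzymes.

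After filters on mitochondrial share and genes per cell, and after clusters with markers of other cell types were left out, the libraries held 493 to 6301 epithelial-like cells and 2158499 to 69388258 UMIs in the shared genes. The adult cTEC libraries were the shallowest, so their values are the least precise. The labels name thymus as tissue while one protocol field names bone marrow; the summed level of 8 cTEC markers was 11150 to 24710 CPM (UMIs scaled to 1000000 per library) in the cTEC libraries from E15.5 on, against 1178 and 886.4 CPM in adult mTEC, and 6 markers of Aire-expressing mTEC summed to 1103 and 1051 CPM in adult mTEC against at most 55.6 CPM in the others. Libraries shared at most 1.9% of the barcodes of the smaller one. Intervals and floors below cover counting error only.

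The 19 synthetases varied less than the other members: the highest library was 2.39 times the lowest in the median synthetase and 7.02 times in the median of the other 15 genes, with Slc7a5 and Chac1, each at 0 in a library, ranked highest. Across the 8 libraries Sars, the seryl-tRNA synthetase, lay between 68.2 and 105.2 CPM and Hars, the histidyl-tRNA synthetase, between 34.5 and 51.1 CPM. Aars, the alanyl-tRNA synthetase, spanned the widest range of the 19: it was at 76.2 CPM in E13.5 TEC, 31.0 in E15.5 cTEC, 14.5 in E17.5 cTEC, 27.1 in NB cTEC, 24.1 and 14.4 in adult cTEC and 65.0 and 25.2 in adult mTEC. Both E17.5 cTEC and replicate 2 of each adult group lay below the data set 1 libraries of neighbouring age, and Aars was higher in replicate 1 than in replicate 2 of both lineages. Eprs, the glutamyl-prolyl-tRNA synthetase, was highest in E13.5 TEC at 238.6 CPM and lay at 134.4 and 83.7 CPM in adult cTEC against 76.5 and 80.5 CPM in adult mTEC.

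**Figure D1:**
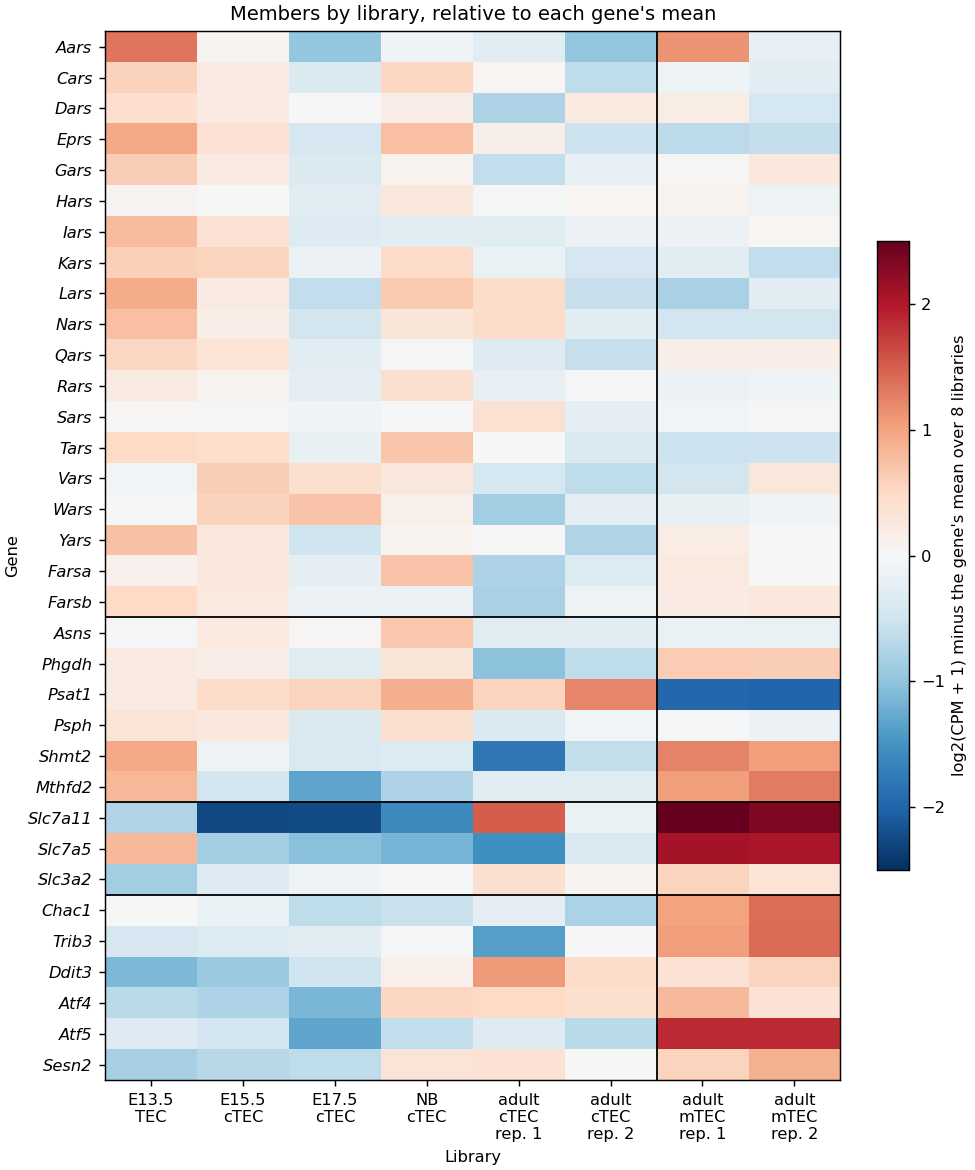
Levels of the 34 genes in the 8 libraries (columns), as log2(CPM + 1) minus the mean of each gene over the libraries; black lines part the 4 functional groups and the adult mTEC libraries. Psat1 is low in both adult mTEC libraries (26.1 and 25.7 CPM), while Slc7a11, Slc7a5, Atf5, Chac1 and Trib3 are high there.

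Slc7a11, the cystine importer that feeds glutathione synthesis, was at 5.65 CPM in E13.5 TEC, 1.35 in E15.5 cTEC, 1.35 in E17.5 cTEC, 2.72 in NB cTEC, 31.0 and 8.97 in adult cTEC and 96.7 and 55.6 in adult mTEC. Both adult mTEC libraries lay above both adult cTEC libraries, and every adult library above every fetal and newborn one. Slc3a2, the heavy chain that SLC7A11 and SLC7A5 share, had a narrower range, from 78.9 CPM in E13.5 TEC to 216.4 CPM in adult mTEC replicate 1.

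ATF4 binds a composite element with the letters TGATGNAAN, and this motif was searched on both strands (its reverse complement is NTTNCATCA) in RefSeq promoter windows of GRCm38.p6, each of 250 bases before the annotated start and 50 from the start on. Of the 34 genes, 26 had a window, and 9 of these 26 (34.6%) held a match, against 4.5% of the 27025 genes with a window. The 9 were Aars, Gars, Tars, Iars, Yars, Asns, Slc7a11, Chac1 and Trib3. Members without a match included Phgdh, Psat1, Psph, Shmt2 and Mthfd2, all of the serine and folate route. A match is a run of letters and not a measured site, and elements outside these windows were not searched. Stretches of 5 members with a match before the start are shown because they cover the range of behaviour seen below, from Slc7a11 and Chac1, which differed between the adult lineages, to Asns and Tars, which passed no test. Each is written 5′ to 3′ on the strand of the gene, with the motif in capitals.
Slc7a11, chr3:50443633-50443699, minus strand, before the gene: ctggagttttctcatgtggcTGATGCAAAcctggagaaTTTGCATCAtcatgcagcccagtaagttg
Chac1, chr2:119351028-119351076, plus strand, before the gene: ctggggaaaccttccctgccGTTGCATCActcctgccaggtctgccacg
Gars, chr6:55037950-55037998, plus strand, before the gene: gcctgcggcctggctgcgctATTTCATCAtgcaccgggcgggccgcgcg
Asns, chr6:7693214-7693242, minus strand, in an exon of the GENCODE M21 gene model: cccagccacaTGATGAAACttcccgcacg
Tars, chr15:11399659-11399684, minus strand, reaching into an exon of the GENCODE M21 gene model: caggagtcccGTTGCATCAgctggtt
Slc7a11 held the motif in both orientations, starting 66 and 48 bases before its start. In Asns it began 23 bases before the start, in Gars 31, in Tars 16 and in Chac1 194. Of the 9 members with a match, 4 were lower in adult cTEC than in adult mTEC and 2 higher in cycling cells; of the 17 with a window and no match, 4 were lower and 1 higher in adult cTEC, and 5 were higher and 2 lower in cycling cells. Over all genes in the tests described below, 21.0% were lower and 11.2% higher in adult cTEC, and 9.23% were higher and 16.1% lower in cycling cells.

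To ask whether these genes followed age in the cortical line, counts were summed per library and a slope on the rank of the 5 stages was fitted over 6 libraries with data set as a term, by edgeR's quasi-likelihood test with Benjamini-Hochberg adjustment over 14268 genes at a threshold of 0.05. Of the 34 members, 1 rose and 0 fell, and 9 had an unadjusted p below the threshold. Over all genes 4.81% rose and 2.89% fell. The median slope was -0.08 log2 per stage for the members and -0.0010 for all genes. DESeq2 on the same libraries called 4 members higher (Ddit3, Atf4, Sesn2 and Slc3a2) and 2 lower (Qars and Shmt2) with stage, against 10.7% and 8.22% of all genes by that test.

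Ddit3, on chromosome 10 from 127290774 to 127296288, was the member that rose; it encodes CHOP, a factor of the late stress response. Its level was 13.1 CPM in E13.5 TEC, 15.1 in E15.5 cTEC, 20.9 in E17.5 cTEC, 32.5 in NB cTEC and 63.0 and 41.3 in adult cTEC. Every stage lay above the one before it. The slope was 0.55 log2 per stage (SE 0.079, edgeR adjusted p = 0.0166), and without adult cTEC replicate 1, the shallowest library, no member was called.

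In the same fit, 12 of 16 genes of a fixed dissociation-stress list (immediate early and heat shock genes) rose with stage and 0 fell. Their summed level was 523.1 to 926.8 CPM in the fetal libraries and 5656 to 20100 CPM in the newborn and adult ones, highest in adult cTEC replicate 1. Atf3, a stress factor that is both on this list and among the known ATF4 targets, was at 0.94, 0.11 and 0.23 CPM at E13.5, E15.5 and E17.5, 435 CPM in NB cTEC and 1838 and 686.9 CPM in adult cTEC. Of markers of other cell types tested in this fit, 7 of 10 thymocyte, 3 of 5 myeloid, 4 of 4 endothelial and 1 of 5 mesenchymal ones rose. Of 4 erythroid and 4 parathyroid markers tested, 1 each fell. The part of such cells or of dissociation stress in the level of Ddit3 was not tested. Fetal and postnatal handling cannot be told apart from age.

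Atf4 itself was at 78.9, 74.2 and 57.1 CPM in the fetal libraries, and at 182.9 in NB cTEC and 179.3 and 166.9 CPM in adult cTEC, so the fetal and postnatal libraries did not overlap. Its slope was 0.43 (SE 0.103, edgeR adjusted p = 0.0563). Sesn2, which restrains mTORC1 when leucine is short, was likewise lower in every fetal than in every postnatal library, with 9.21, 10.2 and 10.6 CPM in the fetal libraries, 21.7 in NB cTEC and 22.2 and 17.2 CPM in adult cTEC (slope 0.36, SE 0.0864, edgeR adjusted p = 0.0558). Neither passed the threshold. Both transcripts were higher in postnatal than in fetal libraries within each data set, and the dissociation list differed between the same libraries.

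Of the 19 synthetases, 17 had a negative slope and 2 a positive one, with a median of -0.16 log2 per stage and a range from -0.32 (Aars) to 0.05 (Sars), and 0 passed the test. Shmt2, the mitochondrial enzyme that turns serine into glycine, was at 27.3 CPM in E13.5 TEC, 12.4 in E15.5 cTEC, 10.2 in E17.5 cTEC, 10.6 in NB cTEC and 3.24 and 8.72 in adult cTEC. E13.5 TEC stood apart at the top and adult cTEC replicate 1 at the bottom with 7 UMIs. The slope of -0.49 (SE 0.143, edgeR adjusted p = 0.0905) did not pass the threshold.

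Stage steps were compared within a data set. With 1 library per age these are differences between libraries with no test. Genes with at least 10 UMIs in either library and a change of at least 2-fold were counted. The shares of all genes hold both directions together, so the direction of the members cannot be set against them. In each step a smaller share of the members than of all genes passed the fold. From E13.5 TEC to E15.5 cTEC, 5 of 34 members passed this fold, all downwards, against 22.5% of all genes in either direction. They were Slc7a5 (log2 ratio -2.74), Slc7a11 (-2.07), Mthfd2 (-1.35), Aars (-1.30) and Shmt2 (-1.14). The share of cycling cells was 77.5% in the first library and 29.8% in the second, and among resting cells Slc7a11 alone passed the fold with enough UMIs. Resting cells of E13.5 TEC and E15.5 cTEC had Aars at 50.2 and 25.2 CPM, Mthfd2 at 11.4 and 6.25 CPM and Shmt2 at 17.2 and 10.1 CPM, just short of the fold or below it, and 3 UMIs of Slc7a5 in each. The sort also changed from total TEC to cTEC.

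From E15.5 to NB cTEC, 6 members passed it, 4 upwards and 2 downwards, against 19.4% of all genes. Atf4 (log2 ratio 1.30), Ddit3 (1.10), Sesn2 (1.09) and Slc7a11 (1.01) were those that went up, and Chac1 and Slc7a5, with at most 17 UMIs in either library, went down. Ribosomal protein genes took 245400 CPM at E15.5 and 153100 CPM in NB cTEC; with CPM computed without them, Atf4 alone passed the fold upwards, and the median log2 ratio of the members turned from 0.13 to -0.033.

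From NB to adult cTEC replicate 1, 7 of 32 members passed the fold, 1 upwards and 6 downwards, against 28.2% of all genes. Slc7a11 was 11.4-fold higher, with 63 UMIs before and 67 after. The 6 that went down were Trib3 (log2 ratio -1.89), Shmt2 (-1.71), Farsa (-1.53), Phgdh (-1.32), Wars (-1.02) and Asns (-1.01). In this step 17 of 19 synthetases were lower, with a median log2 ratio of -0.61 against 0.0035 for all genes.

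From E17.5 to adult cTEC replicate 2, 5 of 33 members passed the fold, 4 upwards and 1 downwards, against 27.8% of all genes. Slc7a11 (2.73), Slc7a5 (1.57, with 29 and 5 UMIs), Atf4 (1.55) and Mthfd2 (1.14) went up. The counting interval of the log2 ratio of Slc7a5, -0.15 to 2.96, included 0. Among resting cells Ddit3 passed the fold upwards and Slc7a5, with too few UMIs, did not. Vars, the valyl-tRNA synthetase, went down (-1.03). With all deposited cells, or with the haemoglobin cluster of E17.5 cTEC kept, no member went down past the fold. Here 11 of 19 synthetases were lower, with a median log2 ratio of -0.10. Slc7a11 was the only member past the fold upwards into the adult in both data sets. Ddit3 was just short of the fold in both, 1.94-fold and 1.98-fold higher. Wars, the tryptophanyl-tRNA synthetase, was at -1.02 and -0.96 log2 in the steps into the adult, and past the fold downwards in both with CPM computed without ribosomal protein genes or in resting cells only.

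Where Slc7a11 was high in the cTEC gate, medullary transcripts were high too. The 5 markers of mTEC I (Ccl21a, Krt5, Krt14, Itga6 and Pdpn) summed to 6226 and 1382 CPM in adult cTEC replicates 1 and 2, against 224.1 to 448 CPM in cTEC from E15.5 to birth, with Slc7a11 at 31.0 and 8.97 CPM in the same order. A UMI of the cortical genes Psmb11 or Prss16 was found in 66.1% and 79.7% of adult cTEC cells, but also in 25.05% and 29.57% of adult mTEC (median UMIs per cell 3996 and 7062 against 9500.5 and 11386), so it marks cortical cells loosely. In the adult cTEC cells with one, Slc7a11 was at 24.2 and 6.97 CPM; in the cells without one it was at 51.0 and 20.98 CPM. The former values still lay above every fetal and newborn library, that of replicate 2 resting on 24 UMIs, and mTEC I markers summed to 5339 and 910.5 CPM in the same cells. The part of medullary cells or their free RNA was not tested.

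**Figure D2:**
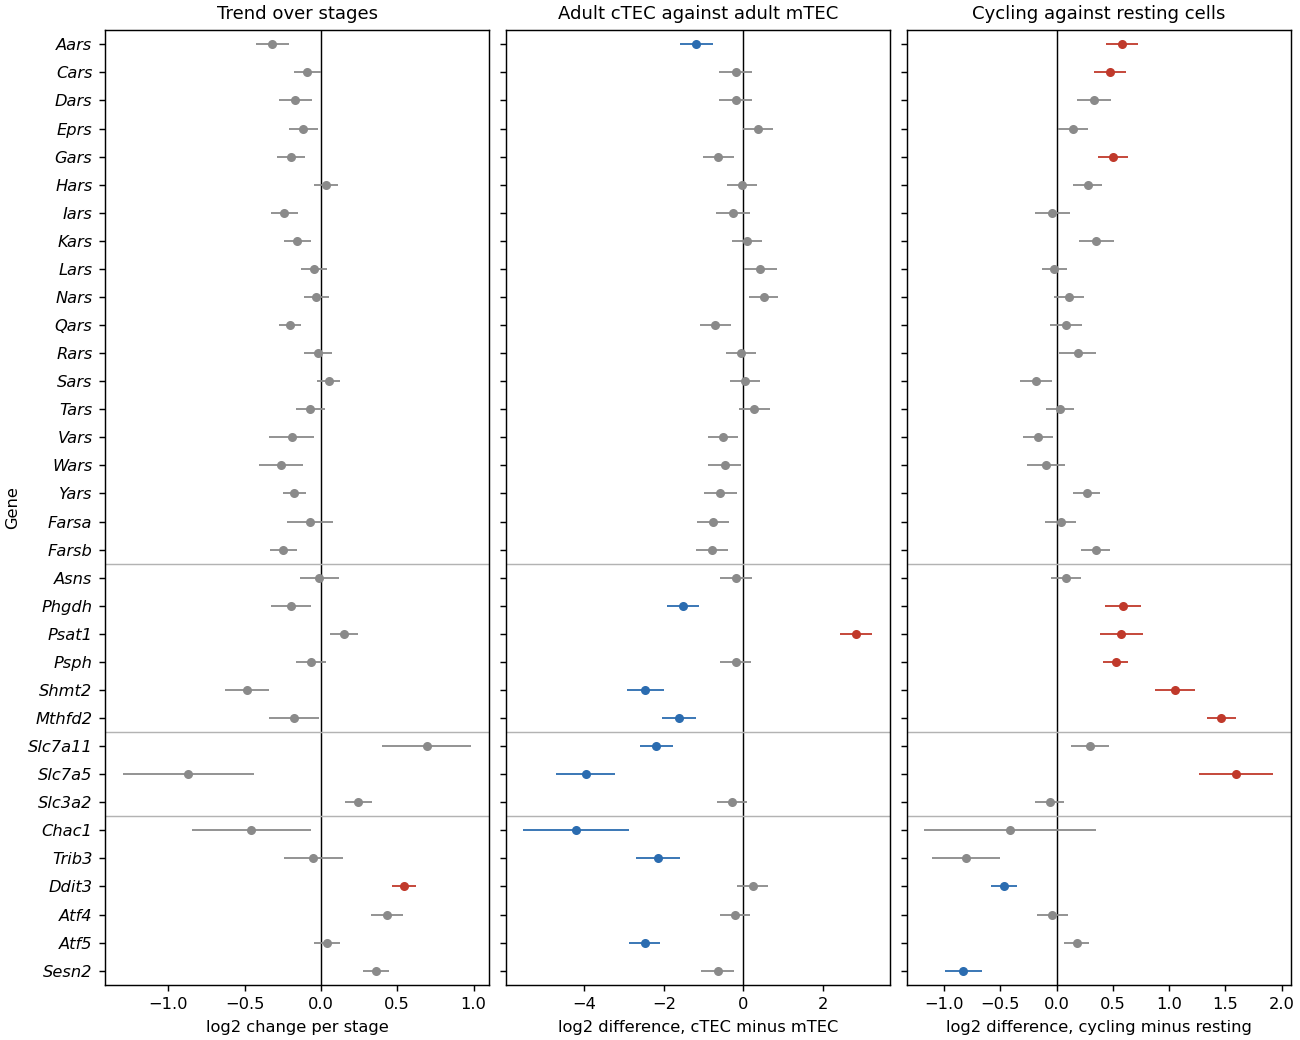
Estimates for each of the 34 genes in the 3 tests, as log2 change per stage, log2 cTEC minus mTEC and log2 cycling minus resting; bars are 1 SE, red marks adjusted p of at most 0.05 above 0 and blue below 0, and grey lines part the functional groups. The trend has 1 coloured gene (Ddit3), the lineage comparison 10 and the cycling comparison 11.

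Adult cTEC and adult mTEC were compared over 4 libraries with data set as a term, in the same kind of test over 15626 genes. Of the 34 members, 1 was higher in cTEC and 9 were lower. Over all genes 11.2% were higher in cTEC and 21.0% lower. The median difference was -0.38 log2 for the members and -0.14 for all genes. DESeq2 called 1 member higher and 6 lower, against 6.12% and 10.5% of all genes by that test. One of the 19 synthetases was called, against 4 of the 6 synthetic enzymes, 2 of the 3 transporters and 3 of the 6 stress factors and effectors.

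The enzymes of the serine route did not move together between the adult lineages. Psat1, on chromosome 19 from 15904678 to 15947337, encodes the transaminase of the middle step of serine synthesis; it was at 154.7 and 243.8 CPM in adult cTEC and 26.1 and 25.7 CPM in adult mTEC. The groups did not overlap, and the fetal and newborn libraries, at 122.8 to 198.1 CPM, also lay above mTEC. The difference was 2.84 log2 (SE 0.403, 7.17-fold, edgeR adjusted p = 4.67e-08).

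Phgdh, on chromosome 3 from 98313170 to 98339990, encodes the enzyme of the step before and ran the other way. It was at 175.6 and 230.9 CPM in adult cTEC and 554.1 and 551.0 CPM in adult mTEC, a 2.88-fold difference (log2 -1.52, SE 0.401, edgeR adjusted p = 0.00202). E13.5 TEC held Phgdh at 416.3 CPM, and cTEC of E15.5, E17.5 and newborn mice at 401.4, 290.5 and 439.8 CPM. These values lay between those of the adult cTEC and the adult mTEC libraries. Psph, the phosphatase of the last step, was at 30.6 and 37.9 CPM in adult cTEC and 38.8 and 35.9 CPM in adult mTEC, and these ranges overlapped (log2 -0.20, SE 0.393, edgeR adjusted p = 0.759).

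Shmt2 and Mthfd2, which take serine into the mitochondrial folate cycle, were lower in cTEC as well. Shmt2 stood at 3.24 and 8.72 CPM in adult cTEC and 33.6 and 29.3 CPM in adult mTEC (log2 -2.46, SE 0.473, edgeR adjusted p = 2.78e-05), and Mthfd2 at 12.5 and 12.4 CPM against 33.3 and 39.8 CPM (log2 -1.62, SE 0.426, edgeR adjusted p = 0.00205). Asns, the asparagine synthetase and a standard ATF4 target, was at 28.7 and 29.9 CPM in adult cTEC and 31.8 and 31.8 CPM in adult mTEC, with no call (log2 -0.18, SE 0.398, edgeR adjusted p = 0.777).

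**Figure D3:**
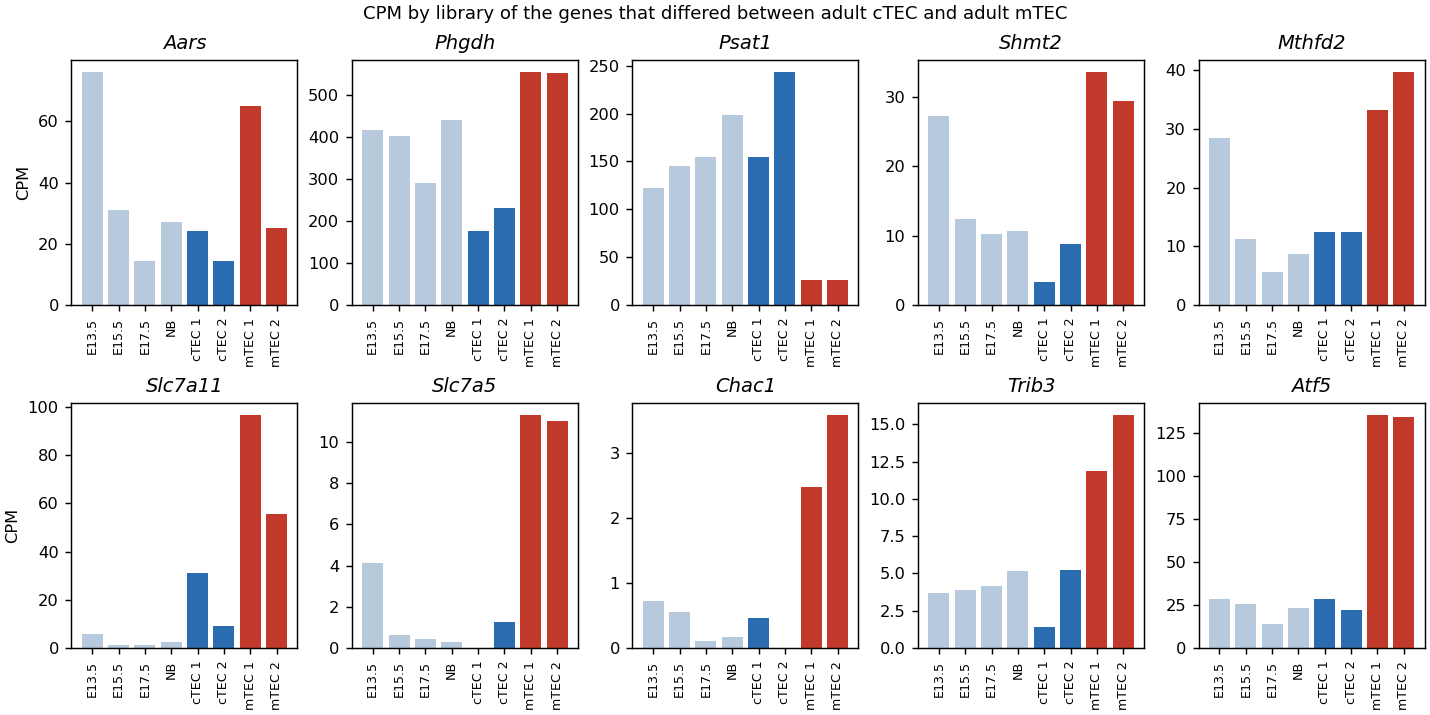
CPM in each of the 8 libraries for the 10 genes that differed between adult cTEC (dark blue, 2 replicates) and adult mTEC (red, 2 replicates), with the fetal and newborn libraries in pale blue; each panel has its own axis from 0. Psat1 is the 1 gene that is higher in cTEC.

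Among the transporters, Slc7a11 was lower in cTEC in both data sets, 3.12-fold and 6.198-fold (log2 -2.19, SE 0.409, edgeR adjusted p = 1.7e-05). Slc7a5, the large neutral amino acid transporter LAT1, had 0 UMIs in adult cTEC replicate 1 and 5 in replicate 2, against 188 and 742 in adult mTEC, where it was at 11.3 and 11.02 CPM. Against a floor of 3 UMIs in that library the ratio in data set 1 was at least 8.14-fold lower in cTEC, and 5 UMIs made it 8.85-fold lower in replicate 2 (edgeR adjusted p = 1.44e-05). Slc3a2, their partner, was at 193.2 and 152.2 CPM in adult cTEC and 216.4 and 184.0 CPM in adult mTEC and was not called (edgeR adjusted p = 0.616). Both light chains passed the test and the shared heavy chain did not; the contrast between the subunits was not tested.

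Of the stress genes, Atf5, an ATF4-related factor, was at 28.7 and 22.4 CPM in adult cTEC and 135.6 and 134.6 CPM in adult mTEC, 5.59-fold lower in cTEC (SE 0.399 log2, edgeR adjusted p = 8.72e-07). Trib3, a pseudokinase that restrains ATF4, was at 1.39 and 5.23 CPM in cTEC (3 and 21 UMIs) and 11.8 and 15.6 CPM in mTEC (edgeR adjusted p = 0.00132); in data set 1 the 95% counting interval of its log2 ratio ran from -5.38 to -1.52. Chac1, which degrades glutathione, had 1 and 0 UMIs in cTEC and 41 and 241 in mTEC (edgeR adjusted p = 0.0109). Against the same floor it was at least 4.79-fold lower in cTEC with replicate 2, and with replicate 1 the counting interval of the log2 ratio, -7.75 to 0.15, included 0. DESeq2 did not call Chac1, Trib3 or Aars.

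Beside these differences, 8 of the 16 dissociation-stress genes were higher and 1 was lower in adult cTEC, with summed levels of 20100 and 11860 CPM against 9950 and 5656 CPM in adult mTEC; the part of dissociation stress was not tested.

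Atf4, Ddit3 and Sesn2 were not called between the lineages. Atf4 stood at 179.3 and 166.9 CPM in adult cTEC and 223.8 and 162.7 CPM in adult mTEC, and Ddit3 at 63.0 and 41.3 CPM against 38.3 and 44.6 CPM, with overlapping groups in both cases. Sesn2 stood at 22.2 and 17.2 CPM in adult cTEC and 25.7 and 32.6 CPM in adult mTEC, groups that did not overlap (1.56-fold lower in cTEC, edgeR adjusted p = 0.246). Aars was the synthetase that was called: with replicate 1 of both lineages it was 2.699-fold lower in cTEC, and with replicate 2 it was 1.75-fold lower (log2 -1.19, SE 0.411, edgeR adjusted p = 0.0205). The other 18 synthetases had estimates from -0.78 (Farsb) to 0.51 (Nars).

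Markers of other cell types were present in both gates. Mesenchymal markers summed to 509.2 and 319.8 CPM in adult cTEC and 102.9 and 70.5 CPM in adult mTEC, and myeloid markers to 313.6 and 32.6 against 449 and 571.7 CPM. Erythroid markers summed to 1.39 and 2.24 against 84.7 and 108.2 CPM, with 5 of 5 tested lower in cTEC, and 2 of 2 B cell markers were lower and 2 of 4 endothelial markers higher in cTEC. The mesenchymal list did not move as one: 3 and 2 of its 8 genes were at 0 in adult cTEC, and of 7 tested 1 was higher and 2 were lower in cTEC, with a median of -0.86 log2. The part of such cells or their free RNA in the differences was not tested. With adult cTEC restricted to cells with a cortical transcript, which adult mTEC cells can also hold, 1 member was higher and 8 were lower in cTEC, Chac1 being lost.

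The adult mTEC cells of each cluster, from a clustering of each data set with all its libraries, are described here without a test, as the cells were clustered on their own expression. Slc7a11 was among the 2000 variable genes in both data sets and the other 33 members were in neither. In the clusters that held 5 of 5 mTEC I markers, and are called mTEC I-like (708 cells in replicate 1 and 959 in replicate 2), Slc7a11 was at 221.9 and 183.9 CPM, against at most 32.1 CPM in the other clusters of replicate 1 and at most 84.7 CPM in those of replicate 2. Slc3a2 was highest in the same clusters, at 311.8 and 261.1 CPM. Phgdh stood at 227.7 and 247.0 CPM there, below both library totals, against 175.6 and 230.9 CPM in the adult cTEC libraries.

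Phgdh was highest in the clusters led by cell cycle genes or by Pou2af1 and Nkx6-2. It was at 946.8 CPM in a cluster of 381 cells of replicate 1, and at 858.4 and 814.9 CPM in clusters of 529 and 824 cells of replicate 2. The stress genes were highest elsewhere. Trib3 was at 25.3 CPM in replicate 1 and 30.2 CPM in replicate 2 in the clusters with S100a8 and S100a9 among their top genes (495 and 1720 cells). In the mTEC I-like clusters Trib3 was at 2.09 and 5.003 CPM. Chac1 followed it, with 5.64 and 8.21 CPM against 0 and 0.85 CPM.

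**Figure D4:**
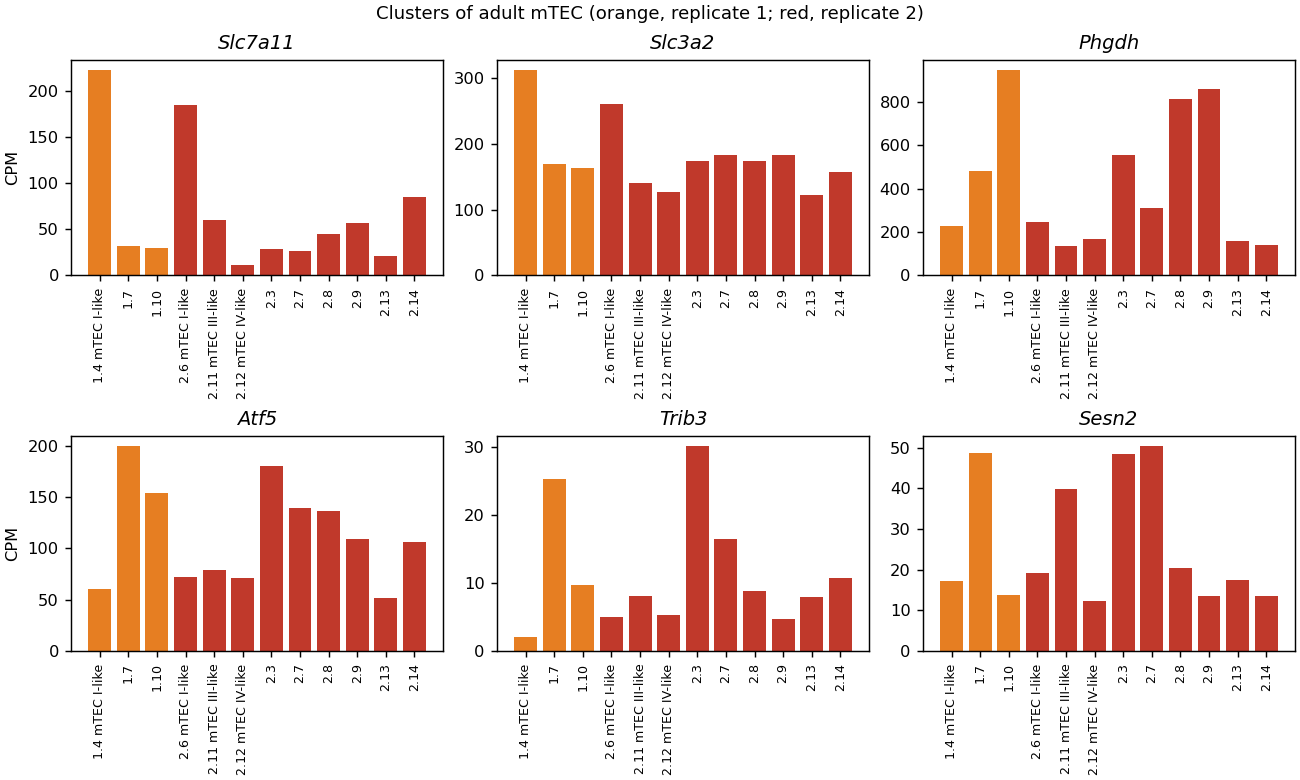
CPM of 6 members in each cluster of adult mTEC (orange, replicate 1; red, replicate 2); bars start at 0, each panel has its own axis, and names are given where markers allowed one. Slc7a11 and Slc3a2 peak in the mTEC I-like clusters 1.4 and 2.6, Phgdh in the clusters of 381, 824 and 529 cells, and Trib3 in 1.7 and 2.3.

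Atf5 was highest in the same 2 clusters as Trib3, at 199.6 and 180.4 CPM, and lower in the mTEC I-like clusters, at 60.1 and 72.0 CPM, which still lay above both adult cTEC libraries. Atf4 varied less, from 220.9 to 227.3 CPM over the clusters of replicate 1 and from 115.8 to 186.7 CPM over those of replicate 2. Sesn2 was at 48.6 and 48.4 CPM in the S100a8 and S100a9 clusters, and at 50.4 CPM in a cluster of 906 cells led by Fabp9.

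The study asked whether programs that decline with age follow the share of dividing cells. Here cells were called cycling when their score over 97 S phase and G2M phase genes, none of them a member, was above 0. The share of such cells was 77.5% in E13.5 TEC, 29.8% in E15.5 cTEC, 16.3% in E17.5 cTEC, 11.5% in NB cTEC, 1.62% and 7.77% in adult cTEC and 11.9% and 13.1% in adult mTEC. Cycling and resting cells were compared within each library, over 7 libraries (adult cTEC replicate 1 had 8 cycling cells and was left out) and 16963 genes. Of the 34 members, 9 were higher in cycling cells and 2 were lower. Over all genes 9.23% were higher and 16.1% lower. The median difference was 0.16 log2 for the members and -0.16 for all genes.

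Of 8 cTEC markers, 7 were lower in cycling cells and 0 higher. Their sum in cycling and resting cells was 2055 against 4378 CPM at E13.5, 13930 against 27330 CPM at E17.5 and 9291 against 21300 CPM in adult cTEC. Also lower were 5 of 7 myeloid, 5 of 5 erythroid and 2 of 2 B cell markers tested, with 0 higher. The same held for 4 of 6 mTEC III and 5 of 8 mTEC IV markers. No thymocyte, endothelial or mesenchymal marker was called. The part of all these in the results below was not tested.

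The synthetic enzymes were the group with most calls. All but Asns, so 5 of 6, were called higher in cycling cells, and all 5 were higher in 7 of 7 libraries. Mthfd2, on chromosome 6 from 83305691 to 83325908, changed most of these 5, with 31.8 CPM in cycling against 11.4 in resting cells at E13.5, 19.9 against 6.25 at E15.5, 11.9 against 4.16 at E17.5, 19.1 against 7.10 in NB cTEC, 45.2 against 8.62 in adult cTEC, and 62.0 against 26.7 and 62.3 against 33.99 in adult mTEC. The difference was 1.46 log2 (SE 0.129, 2.76-fold, edgeR adjusted p = 9.13e-07). Shmt2 was 2.07-fold higher (SE 0.176 log2, edgeR adjusted p = 0.000625).

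Phgdh, Psat1 and Psph were higher in cycling cells too, 1.51-fold, 1.49-fold and 1.44-fold (edgeR adjusted p = 0.0145, 0.0419 and 0.00376). Without E13.5 TEC, Phgdh, Psat1 and Cars were not called, nor was Psat1 without E15.5 cTEC. Psat1 and Gars were not called without cells of high UMI totals. With the 90th percentile of the score as limit, Psat1, Aars, Slc7a5 and Ddit3 were not called. That limit also left out adult mTEC replicate 1, which then had 1 cycling cell. In adult mTEC, Psat1 was at 50.1 and 42.3 CPM in cycling and 20.6 and 21.4 CPM in resting cells, so that even cycling mTEC lay below the resting cells of E13.5 TEC (77.1 CPM) and of every cTEC library compared (129.8 to 239.8 CPM). Asns was higher in 4 of 7 libraries and lower in 3 and was not called (0.08 log2, SE 0.134, edgeR adjusted p = 0.686).

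**Figure D5:**
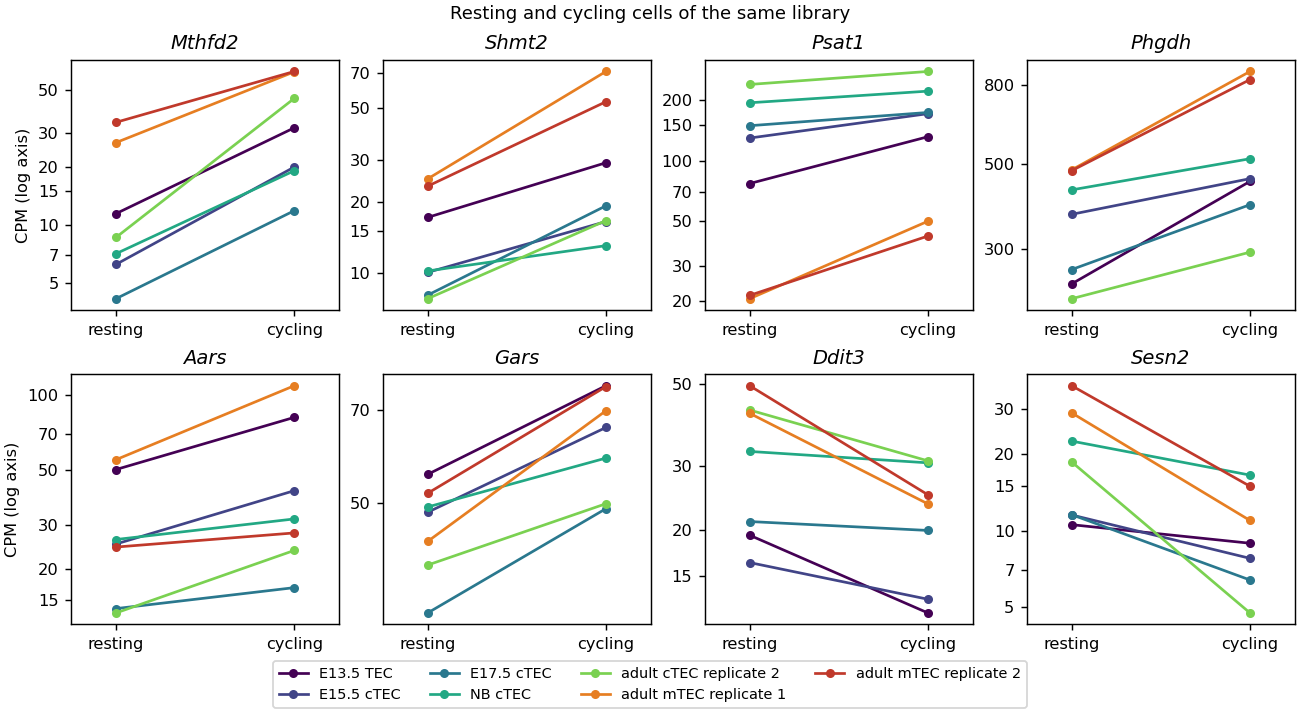
CPM (log axis) of 8 members in resting and cycling cells of the same library, 1 line per library for the 7 libraries with at least 20 cells of both classes. Mthfd2, Shmt2, Psat1, Phgdh, Aars and Gars are higher in cycling cells in 7 of 7 libraries, and Ddit3 and Sesn2 lower in 7 of 7.

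Of the synthetases, 3 were higher in cycling cells and 0 lower: Aars (0.58 log2, SE 0.146, edgeR adjusted p = 0.0102), Gars (0.50, SE 0.133, edgeR adjusted p = 0.0143) and Cars, the cysteinyl-tRNA synthetase (0.47, SE 0.140, edgeR adjusted p = 0.0233), each higher in 7 of 7 libraries. Dars, Hars and Farsb were also higher in 7 of 7 libraries but did not pass the test. The median of the 19 was 0.14 log2. Slc7a5 was 3.02-fold higher (SE 0.332 log2, edgeR adjusted p = 0.00318) and higher in 7 of 7 libraries, though with 7 or fewer UMIs in the resting cells of E13.5 TEC and of each cTEC library.

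Ddit3 and Sesn2 ran against these. Ddit3 was at 11.9 against 19.4 CPM in cycling and resting cells at E13.5, 12.96 against 16.3 at E15.5, 19.97 against 21.1 at E17.5, 30.5 against 32.8 in NB cTEC, 30.9 against 42.6 in adult cTEC, and 23.6 against 41.7 and 24.98 against 49.6 in adult mTEC, lower in 7 of 7 (log2 -0.47, SE 0.114, edgeR adjusted p = 0.0083). Sesn2 was 1.78-fold lower, again in 7 of 7 libraries (SE 0.163 log2, edgeR adjusted p = 0.0021). Atf4 was higher in 4 and lower in 3 (log2 -0.04, edgeR adjusted p = 0.865). The dissociation-stress list was lower in the cycling cells of all 7 libraries, for example 743.3 against 1241 CPM at E13.5 and 6626 against 10710 CPM in adult mTEC replicate 1; its part was not tested.

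The cycling difference was then compared with an interaction term between adult mTEC and the other 5 libraries, E13.5 TEC included. Both mTEC libraries were adult, 4 of the other 5 were fetal or newborn, and the adult cTEC library had 41 cycling cells, so lineage and age cannot be told apart here. With TMM scaling the difference was more positive in mTEC for 13 of 34 members and more negative for 3, against 14.4% and 7.12% of all genes. These counts changed with the scaling: DESeq2 size factors moved the median of all genes by -0.34 log2, and with them 3 members were more positive and 5 more negative, against 5.84% and 11.3% of all genes. Dars, Psat1 and Rars on the positive side and Chac1, Slc7a5 and Trib3 on the negative side were called with TMM, with DESeq2 size factors, with library totals as scale and by the DESeq2 test. Leaving out an mTEC library leaves a single one on that side, so the calls cannot be checked that way. Cycling cells of adult mTEC replicate 2 were higher by 0.60 (Dars), 0.98 (Psat1) and 0.49 log2 (Rars). In replicate 1 the values were 0.69, 1.28 and 0.56 log2. Of the other 5 libraries, Chac1 was not called without E15.5 cTEC and Slc7a5 not without E17.5 cTEC. Trib3 was called without any 1 of these 5.

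Rars, the arginyl-tRNA synthetase, was at 64.6 against 43.7 and 63.3 against 44.9 CPM in cycling and resting mTEC. In the other libraries it was at 63.0 against 53.3 CPM at E13.5, 53.5 against 57.6 at E15.5, 46.6 against 44.4 at E17.5, 71.9 against 69.6 in NB cTEC and 40.4 against 53.1 in adult cTEC. Cycling cells were higher in 3 of these 5 and lower in 2, each by less than in mTEC. Trib3 was at 1.61 against 14.2 and 4.87 against 18.4 CPM in cycling and resting mTEC. Elsewhere it was at 3.47 against 4.85 CPM at E13.5, 4.66 against 3.47 at E15.5, 4.20 against 4.12 at E17.5, 3.50 against 5.40 in NB cTEC and 2.38 against 5.56 in adult cTEC, with 1 UMI in the cycling cells of the last. It was lower in cycling cells in 5 of 7 libraries, and by most in mTEC. Resting and cycling mTEC also differed in subset: mTEC I markers summed to 2752 and 2625 CPM in cycling and 9604 and 4341 CPM in resting mTEC, and mTEC III markers to 79.8 and 90.8 against 333 and 434.5 CPM. The part of subset in these differences was not tested.

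Other genes of the pathway, on lists fixed by name, were counted in the same tests. Over all genes, 11.2% were higher and 21.0% lower in adult cTEC than in adult mTEC. In cycling cells 9.23% were higher and 16.1% lower, and with stage 4.81% rose and 2.89% fell. Of 17 mitochondrial synthetases, 0 passed the age trend, 2 of 16 tested were lower in adult cTEC than in mTEC (Lars2 and Fars2), and those higher in cycling cells included Sars2 and Yars2. Mars, Aimp1, Aimp2, Eef1e1 and Tarsl2, the remaining genes of the synthetase complex and a synthetase-like gene, had 3 of 5 higher in cycling cells: Mars by 0.64, Aimp2 by 0.71 and Eef1e1 by 0.59 log2. Mars was also lower in adult cTEC than in adult mTEC (-1.04 log2).

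Of 28 further ATF4 targets and amino acid genes, 5 of 26 tested were higher and 6 lower in adult cTEC than in adult mTEC. In cycling cells 6 were higher and 6 lower, and with stage 2 of 26 tested rose and 1 fell. Fgf21, a stress-induced hormone, was at 10.7 and 5.73 CPM in adult cTEC and 873 and 531 CPM in adult mTEC. Gdf15, another stress cytokine, was at 0.46 and 2.24 CPM against 50.1 and 31.4 CPM. Both were also lower in cycling cells (-1.14 and -1.87 log2). Atf3 ran the other way between the lineages, at 1838 and 686.9 CPM in adult cTEC and 642.8 and 309.4 CPM in adult mTEC. Gpt2, which makes alanine, rose with stage and was higher in cTEC (1.397 log2), while Shmt1 and Slc1a5, the cytosolic serine enzyme and a glutamine transporter, were lower in cTEC (-1.88 and -1.45 log2) and higher in cycling cells (1.03 and 1.01 log2).

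Among 8 eIF2alpha kinases and partners, 2 rose with stage. One was Impact, an inhibitor of the amino acid-sensing kinase GCN2, at 14.5, 27.2 and 35.4 CPM in the fetal libraries, 65.0 in NB cTEC, 75.5 and 69.99 in adult cTEC and 13.9 and 14.4 CPM in adult mTEC; it was also higher in adult cTEC than in mTEC (2.29 log2) and lower in cycling cells (-0.71 log2). The other was Eif2ak2, the kinase that senses double-stranded RNA. Of 12 endoplasmic reticulum chaperones and partners, 7 were lower in adult cTEC than in adult mTEC and 0 higher, among them Herpud1 (-1.93 log2) and Hspa5 (-1.06 log2). Herpud1 and Dnajb9 also rose with stage in the cortical line.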

How the data were processed

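The deposited values are raw UMI counts per gene and called cell. Per the labels and methods, the authors used Chromium version 2 chemistry and Cell Ranger 2.0.1, but version 3.0.1 stands in the file headers of data set 2. Gene positions are from GENCODE M21 (GRCm38), and promoters from RefSeq on GRCm38.p6. Because the data sets were counted with different gene lists, only the 27514 shared genes were used.

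Cells with over 5% mitochondrial UMIs or over 5000 genes were left out (25750 of 28334 kept), data sets were clustered separately (2000 variable genes, 20 principal components, Leiden resolution 0.8, leidenalg 0.10.2), and clusters with at least 3 and over 50% of the markers of a non-epithelial class at 4-fold were removed. No doublet caller was run. A cluster of 2061 cells, nearly all E17.5 cTEC, was removed by this rule for haemoglobin genes, although it held Psmb11 at 1002 CPM and Epcam at 366.0 CPM; keeping it is an alternative added after seeing the data. The remaining 23262 cells were summed per library, so the library was the replicate.

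Tests used edgeR 4.0.16 in R 4.3.3 (filterByExpr, TMM, quasi-likelihood, Benjamini-Hochberg, threshold 0.05), and SE is the estimate divided by the root of F. On simulated data with 200 changed genes per fit, 194 changed by 1 log2 per stage were recovered in the trend (1.52% of calls false). In the lineage comparison 181 changed by 2 log2 were recovered (3.72%), and in the cycling comparison 197 changed by 1 log2 (6.64%). The changed genes were drawn only from those of higher average level. Recovery of genes at low levels, or of smaller changes, was therefore not measured. DESeq2 1.42.0, other scaling, filters, cell sets and left-out libraries were alternatives; library totals as scale, and all alternatives to the interaction, were added after seeing the data. Ratios of single libraries have exact 95% counting intervals. Labels carry no replicate numbers, so data set was the pairing term. All 34 members are named; of the other lists, genes called in more than 1 comparison or at the ends of the list are. The members and lists were chosen with earlier results of these data known. FoxN1MycTg libraries were not analysed here, and a gene of the other lists and a promoter stretch are not reported here.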

Additional observations from a re-analysis of the deposited data

Results flagged for a closer look

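The difference between cycling and resting cells was not the same in adult mTEC and the other libraries (E13.5 TEC and cTEC) for 16 members, by the interaction term of the edgeR quasi-likelihood fit (adjusted p of at most 0.05). The libraries also differ in age. Values are log2, mTEC minus the others, with TMM scaling, under which the median of all genes was 0.10; it was -0.24 with DESeq2 size factors, and 10 of the 16 calls were lost with them. It was more positive in mTEC for Psat1 (1.17), Rars (0.91), Shmt2 (0.88), Dars (0.86), Wars (0.86), Phgdh (0.73), Kars (0.70), Nars (0.63), Qars (0.62), Hars (0.60), Farsb (0.60), Farsa (0.59) and Gars (0.59). It was more negative for Chac1 (-3.78), Slc7a5 (-1.81) and Trib3 (-1.66); in the resting cells of the other libraries Chac1 had at most 4 UMIs and Slc7a5 at most 7, so these fitted values depend on few molecules.

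The adult cTEC to mTEC ratio of 3 synthetases had opposite signs in the data sets, with counting intervals on either side of 0; the difference between data sets was not tested over replicates. Dars was lower in cTEC in data set 1 (log2 -0.99) and higher in data set 2 (0.68). Lars was higher in data set 1 (1.32) and lower in data set 2 (-0.32), as was Sars (0.47 and -0.25).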

How the results depend on the processing

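Of the 10 members called between adult cTEC and mTEC, none changed direction under any alternative, left-out libraries included, where each data set alone gives a ratio with no test. DESeq2 lost Aars, Chac1 and Trib3, and the fit without a data set term lost Aars, Slc7a11 and Trib3. The count of members rising with stage was 2 with DESeq2 size factors, 4 with the DESeq2 test (2 fell; that test called 10.7% and 8.22% of all genes higher and lower), 2 without E13.5 TEC and 2 in cells with a cortical transcript; leaving out 1 adult cTEC library gave 0 (without replicate 1) to 1. In cycling cells, 7 of 11 calls held with the 90th percentile as limit, 1 of them lower. Aars, Psat1, Slc7a5 and Ddit3 were lost, and this limit also left out adult mTEC replicate 1. With DESeq2 11 held, and 4 were called lower in all, Sars and Vars being added. Without cells of high UMI totals 9 held, Gars and Psat1 being lost. Without E13.5 TEC, Cars, Phgdh and Psat1 were lost, and without E15.5 cTEC, Psat1. The labels carry no replicate numbers, so the only blocks were data set in the lineage and trend fits and library in the cycling fits.

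The interaction of cycling with lineage was rerun after seeing the data. Of the 16 calls with TMM scaling (13 more positive in mTEC, 3 more negative), 6 held with DESeq2 size factors (3 and 5 called in all), with library totals as scale (3 and 7) and with the DESeq2 test (3 and 7). Leaving out 1 library other than mTEC gave 3 (without NB cTEC) to 18 (without E13.5 TEC) more positive and 2 to 4 more negative. Leaving out an mTEC library leaves a single one on that side, so those fits are not counted. Library totals as scale, also added, gave 2 members rising with stage and changed no call between the lineages.

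Among resting cells, the step from E13.5 to E15.5 had 1 member down (median log2 ratio -0.0025), and that from E15.5 to NB 2 up and 0 down. Without ribosomal protein genes in the CPM, the latter had 1 up and a median log2 ratio of -0.033. With all deposited cells it had 1 down, and NB to adult had 2 up. From E17.5 to adult the count down was 2 (Wars and Vars) without ribosomal protein genes and 2 (the same genes) in resting cells, and 0, Vars being lost, with all deposited cells or the haemoglobin cluster kept.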
